A study of Mus musculus with 20 samples.

Results

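Heat shock proteins and DnaJ proteins, the molecular chaperones of the cell, were followed through a mouse heart study of pressure overload and of loss of the de novo DNA methyltransferases. Members were every array probe whose annotated symbol begins with Hspa, Hspb, Hspd, Hspe, Hsph, Hsp90 or Dnaj. This name rule gave 68 genes of the 19057 named on the array, measured by 135 of the 45281 probes. Grouped by family, 23 probes of 11 genes belonged to HSP70, 6 probes of 3 genes to HSP110, 4 probes of 2 genes to HSP90, 3 probes of 2 genes to the mitochondrial chaperonin, 10 probes of 7 genes to the small heat shock proteins and 85 probes of 40 genes to the DnaJ proteins. A further 4 probes covered Hspb11, Hspbap1 and Hspbp1, which carry the name but are not small heat shock proteins. No probe was annotated for 6 genes of these families, which are Hsp90ab1, Dnaja4, Dnajb11, Dnajc13, Dnajc21 and Dnajc22.

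The study used RNA of left ventricles of male mice on Illumina bead chips. TAC DKO (n = 6) and TAC CTL (n = 6) hearts came from mice with transverse aortic constriction, a suture around the aortic arch that raises the pressure load on the left ventricle. Sham DKO (n = 4) and sham CTL (n = 4) hearts came from sham-operated mice. Every mouse carried homozygous floxed alleles of Dnmt3a and Dnmt3b. DKO mice carried in addition a Cre recombinase under the atrial myosin light chain promoter (MLC2a, Myl7), which removes 1 floxed exon of each gene in cardiomyocytes, while CTL mice had no Cre. Operations were done at 10 to 12 weeks of age and tissue was taken 4 weeks later, at 14 to 16 weeks. The deletion is directed to cardiomyocytes, whereas ventricular tissue also holds fibroblasts, vessels and blood cells. The labels number the samples of a group as replicates, so that p-values measure the spread between these samples.

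HSP70 proteins bind exposed hydrophobic stretches of unfolded proteins in cycles of ATP hydrolysis. DnaJ proteins deliver the clients and start the hydrolysis, and HSP110 proteins exchange the nucleotide afterwards. HSP90 acts later, on nearly folded clients, whereas small heat shock proteins hold unfolded proteins without ATP. Each cell compartment has its own set, such as Hspa5, Hsp90b1 and Dnajb9 in the endoplasmic reticulum (ER) and Hspa9, Hspd1 and Hspe1 in mitochondria. Cardiomyocytes contain high levels of several small heat shock proteins, which associate with the myofilaments under stress. Cytosolic stress is known to act through heat shock elements, inverted repeats of the letters GAA, and ER stress through the ER stress element, a CCAAT box next to CCACG.

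Promoters were searched for both elements because several of the members with the largest differences after TAC belong to the 2 stress systems. RefSeq promoter windows on GRCm38.p6, from 250 bases before to 50 bases after the gene start, were available for 56 of the 68 genes, with 72 windows. The heat shock element was written as GAANNTTCNNGAA or TTCNNGAANNTTC and searched on both strands. It was found in 6 of the 72 windows (8.33%), of the genes Hspd1, Hspe1, Hsph1 and Dnajb6, against 198 of 32851 windows of all genes (0.603%). These 6 windows are not independent. Hspd1 and Hspe1 share the same matched stretch, and the 2 windows of Hsph1, like the 2 of Dnajb6, hold the same match. Windows of all genes were counted without removing such repeats either. The ER stress element, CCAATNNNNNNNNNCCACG on either strand, was found in 3 of the 72 windows (4.17%), of Hspa5, Hsp90b1 and Dnajc3, against 39 of all windows (0.119%). A match describes letters only and was not tested as a binding site. No window was held for Hspa8, Hspa9, Hspa13, Hsp90aa1, Hspb2, Dnajc2, Dnajc5, Dnajc5b, Dnajc11, Dnajc12, Dnajc18 and Dnajc30.

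The 215 bases before the gene start are printed below for Hspe1 with Hspd1, Hspa5, Hsp90b1 and Dnajc3, with the matched element in capitals. For Hsph1 and Dnajb6 only the match is given. The stretch before Hspe1 is also the stretch before Hspd1, which is read from the other strand. These 2 genes encode the partner proteins of the mitochondrial chaperonin. The 2 overlapping heat shock elements start 89 and 84 bases before Hspe1 and lie 144 and 139 bases before Hspd1.
Hspe1 and Hspd1, plus strand of chr1:55087933-55088147: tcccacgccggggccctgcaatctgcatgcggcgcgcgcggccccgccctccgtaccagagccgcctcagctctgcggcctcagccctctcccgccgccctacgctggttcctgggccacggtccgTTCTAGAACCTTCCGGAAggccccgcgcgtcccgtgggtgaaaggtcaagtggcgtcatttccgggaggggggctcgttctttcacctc
Hspa5, plus strand of chr2:34771875-34772089, element 65 bases before the start: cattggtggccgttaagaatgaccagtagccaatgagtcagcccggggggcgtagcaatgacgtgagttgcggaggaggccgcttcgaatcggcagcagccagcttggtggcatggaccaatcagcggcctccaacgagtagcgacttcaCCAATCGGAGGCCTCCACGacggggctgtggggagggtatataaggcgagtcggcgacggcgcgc
Hsp90b1, minus strand of chr10:86705445-86705659, elements 212 and 107 bases before the start, the second of them on the opposite strand: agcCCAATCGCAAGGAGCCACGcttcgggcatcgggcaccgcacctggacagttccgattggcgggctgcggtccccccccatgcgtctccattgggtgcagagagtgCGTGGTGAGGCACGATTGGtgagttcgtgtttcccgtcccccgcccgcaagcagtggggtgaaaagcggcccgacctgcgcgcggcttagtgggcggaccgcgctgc
Dnajc3, plus strand of chr14:118937717-118937931, element 105 bases before the start: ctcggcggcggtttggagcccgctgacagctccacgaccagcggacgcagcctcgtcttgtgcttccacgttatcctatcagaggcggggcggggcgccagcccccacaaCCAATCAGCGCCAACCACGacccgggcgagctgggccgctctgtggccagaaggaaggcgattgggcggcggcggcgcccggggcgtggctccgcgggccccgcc
Hsph1 had its match, TTCTGGAAAGTTC, 15 or 36 bases after its 2 annotated starts. Dnajb6 had GAATCTTCCGGAA 46 or 127 bases before its 2 starts.

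Values are array intensities after quantile normalization over the 20 arrays, and changes are log2 fold changes with standard error (SE) from limma. A probe was called when its Benjamini-Hochberg adjusted p over all 45281 probes was under 0.05 and its fold change was over 1.5, and it passed when the adjusted p alone was under 0.05. Of the 135 probes, 86 (56 genes) had a mean level above that of the median probe, an intensity of 53. The other 49 read near the array background, and a level cannot be compared between probes. Where TAC hearts read close to this median, as on probes of Hspa5, Hspa4l, Hsp90aa1 and Dnajc8 called lower, the size of the fall is a lower limit. By their values, the deposited sham and TAC arrays were normalized as 2 separate sets: sorted values agreed within 0.2% for at least 97.57% of the ranks between sham arrays and at least 99.91% between TAC arrays, but for 0.3909 to 0.413% across sets. The effect of TAC and the separate processing of these sets cannot be told apart. Comparisons of genotype lie within 1 set. Their fit still shares the normalization and the estimate of spread over all 20 arrays. Results with the deposited values and with only the groups compared are given below.

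The 5 probes of the targeted genes Dnmt3a and Dnmt3b read 37.2 to 130, without a called difference between DKO and CTL (adjusted p 0.751 to 0.999), and it is not known whether they lie in the deleted exons. Cardiomyocyte markers (6 of 7 measured) summed to 66603 to 79729 in TAC DKO, 67503 to 83850 in TAC CTL, 90187 to 96292 in sham DKO and 88454 to 96318 in sham CTL hearts. Leukocyte markers (5 of 6) summed to 629 to 893, 684 to 1022, 1511 to 1776 and 1188 to 1860 in the same order, and red blood cell markers (3 of 4) to 23015 to 27382, 19293 to 24378, 12501 to 22135 and 7385 to 17056. All these sums were apart between TAC and sham hearts of the same genotype, and their part in the results after TAC was not tested. Fibroblast markers (7 of 7) summed to 7340 to 11836 in TAC and 7856 to 10316 in sham hearts, and endothelial markers (6 of 6) to 2842 to 3564 and 2841 to 3671. Skeletal muscle markers (5 of 5) summed to 2812 to 4768 in TAC and 3249 to 4752 in sham hearts. Smooth muscle markers (6 of 6) summed to 5169 to 11197 in TAC DKO, 5241 to 10128 in TAC CTL, 3769 to 5006 in sham DKO and 5314 to 7245 in sham CTL hearts, apart between TAC DKO and sham DKO and between sham DKO and sham CTL hearts, and their part in the results was not tested. Atrial markers (5 of 5) summed to 583 to 6812 in TAC DKO, 388 to 1190 in TAC CTL, 474 to 1531 in sham DKO and 329 to 388 in sham CTL hearts, with the 2 highest sums, 6812 and 3353, in replicates 3 and 2 of the TAC DKO group.

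The first question was how chaperone RNA differed between hearts under pressure overload and sham-operated hearts. More member probes were called lower than called higher after TAC, while at any fold the counts in CTL hearts were equal, as given below. The probes called lower were led by the general HSP70 (Hspa8), cytosolic HSP90 (Hsp90aa1), ER chaperones (Hspa5, Dnajb9), Dnajb4, Hspb1 and the mitochondrial chaperonin Hspe1. In DKO hearts 19 of 135 member probes (14 genes) were called lower and 8 (8 genes) higher, and in CTL hearts 16 (13 genes) were called lower and 4 (4 genes) higher. Over all probes 4.27% were called lower and 2.46% higher in DKO, and 3.40% lower and 1.76% higher in CTL hearts. The members called lower were 14.1% in DKO and 11.9% in CTL hearts. Among probes above the median level, 22.1% of the 86 members were called lower in DKO, against 8.54% of all such probes, and 18.6% in CTL, against 6.81%. Members called higher were 9.3% of these 86 in DKO, against 4.93% of all such probes, and 4.65% in CTL, against 3.52%. In bulk tissue, fewer cells of a type and less RNA per cell cannot be told apart.

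At any fold, 36 members passed as lower and 21 as higher in DKO hearts (26.7% and 15.6%), against 12.7% and 15.4% of all probes. In CTL hearts 24 passed in each direction (17.8% each), against 10.2% of all probes lower and 11.7% higher. Samples of TAC and sham hearts did not overlap for 28 members with lower and 13 with higher values in DKO (20.7% and 9.63%), against 9.38% and 11.1% of all probes. In CTL hearts this held for 21 lower and 22 higher members (15.6% and 16.3%), against 7.78% and 8.37%. The median change of the 135 members was -0.01 in DKO and 0.01 in CTL hearts, beside 0.02 and 0.01 over all probes.

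The same 16 probes of 13 genes were called lower in both genotypes, and 3 probes (Hspa2, Dnajc10 and Dnajc11) were called higher in both. None was higher in one genotype and lower in the other among the called probes. The 16 falls in CTL hearts and 18 of the 19 in DKO hearts passed in every one of 29 alternative settings tried, the exception being 1 of 3 probes of Hspa8. The rises depended on scaling. With arrays centred on their median in place of quantile normalization, no member was called higher in either genotype, while 31 were called lower in DKO and 27 in CTL hearts, and over all probes 9.2% and 8.5% were then called lower and 0.451% and 0.411% higher. A value named below as higher after TAC is therefore higher on the quantile scale.

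**Figure D1:**
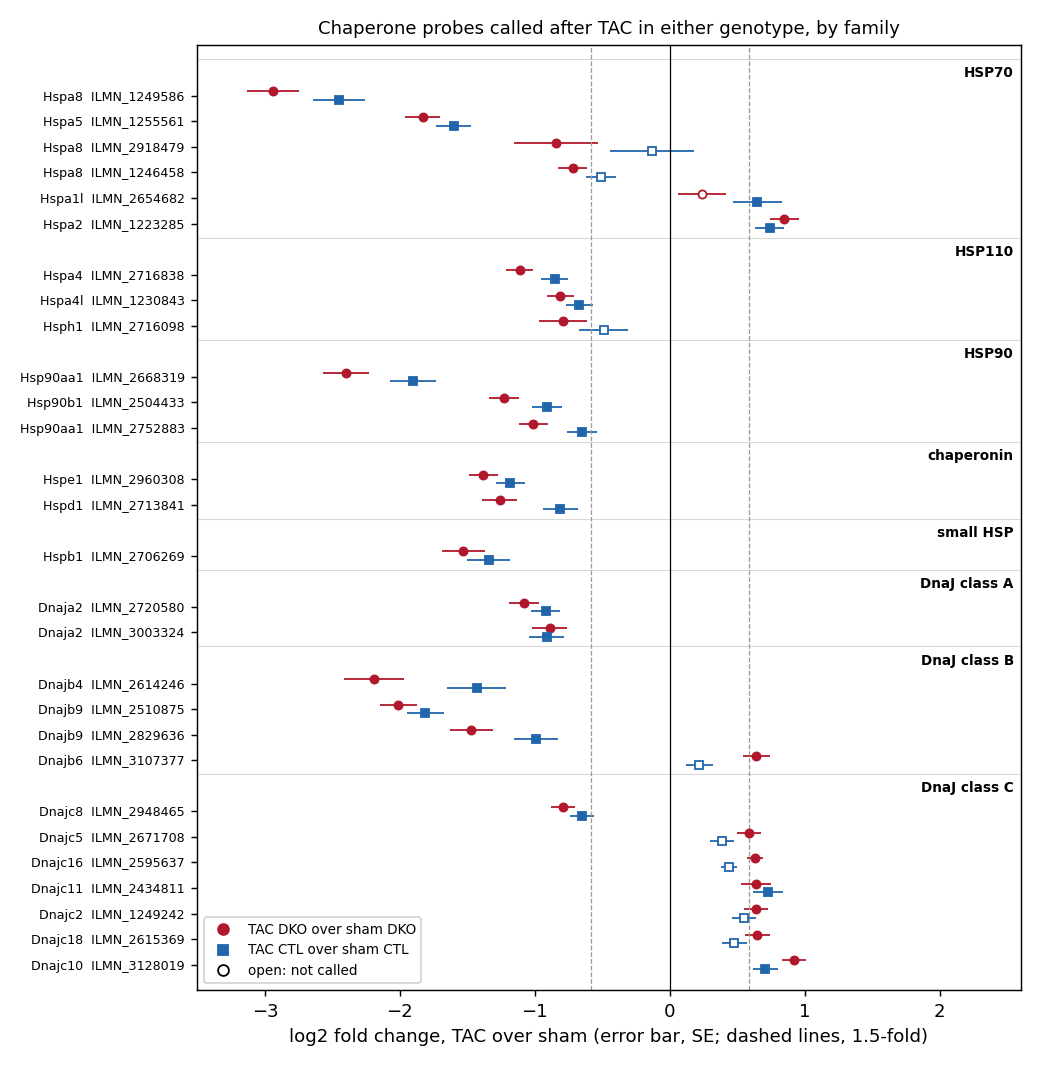
Log2 fold change after TAC (TAC over sham) with SE for each member probe called in either genotype, ordered by family. Red circles are DKO hearts and blue squares CTL hearts, open symbols were not called, and dashed lines mark 1.5-fold. The points reach -2.94 in DKO and -2.45 in CTL hearts at Hspa8, and those on the right stay below 1.

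Of the 23 HSP70 probes, 4 were called lower and 1 higher in DKO hearts, and 2 lower and 2 higher in CTL hearts, with a median change of -0.05 in DKO and -0.03 in CTL hearts. Hspa8 encodes the constitutive cytosolic HSP70, which also uncoats clathrin vesicles. Its probe ILMN_1249586 read 675 to 1340 (median 851) in TAC DKO hearts and 700 to 1438 (median 1232) in TAC CTL hearts, against 7722, 6659, 6153 and 6937 in sham DKO and 6054, 6140, 6594 and 6176 in sham CTL hearts. The highest TAC heart lay far below the lowest sham heart, and TAC DKO replicates 1 to 3, at 675 to 694, lay below replicates 4 to 6. A low sample was also seen in TAC CTL hearts, where replicate 1 read 700 and the next 1020. The fall on this probe was the largest of any member, 7.66-fold in DKO (log2 -2.94, SE 0.19, adjusted p = 1.93e-10) and 5.47-fold in CTL hearts (log2 -2.45, SE 0.19, adjusted p = 3.64e-09).

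The 2 other Hspa8 probes fell less. ILMN_1246458 averaged 6248 ± 1222 in TAC DKO and 6794 ± 513 in TAC CTL hearts (SD, n = 6 each), against 10163 ± 727 in sham DKO and 9654 ± 933 in sham CTL hearts (SD, n = 4 each). Its change was -0.72 in DKO (adjusted p = 2.15e-05) and -0.51 in CTL hearts (adjusted p = 0.00142), the second below 1.5-fold. ILMN_2918479 averaged 1226 ± 276 in TAC DKO and 1210 ± 134 in TAC CTL, against 2177 ± 352 in sham DKO and 1603 ± 829 in sham CTL hearts, where replicate 4 read 370 and the other 3 read 1897 to 2157. Its change of -0.84 in DKO hearts (adjusted p = 0.0487) lost its call in 18 of the 29 alternatives (adjusted p up to 0.147, but 2.23e-05 without sham CTL replicate 4), and its change of -0.13 in CTL hearts did not pass (adjusted p = 0.826). Thus the 3 probes of this gene gave falls of unequal size.

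Hspa5 encodes BiP, the HSP70 of the ER and a sensor of unfolded proteins there. It read 58.5 to 75.1 (median 64.6) in TAC DKO and 55.0 to 72.9 (median 65.0) in TAC CTL hearts, against 177, 311, 230 and 229 in sham DKO and 160, 177, 253 and 197 in sham CTL hearts. Groups did not overlap, and TAC hearts of both genotypes read close to the median probe of the array. The fall was 3.55-fold in DKO (log2 -1.83, SE 0.13, adjusted p = 4.53e-10) and 3.03-fold in CTL hearts (log2 -1.60, SE 0.13, adjusted p = 4.48e-09). Its promoter is 1 of the 3 with the ER stress element printed above.

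Hspa2, an HSP70 best known from spermatogenesis, was the member of this family with the largest rise. Probe ILMN_1223285 read 518 to 818 (median 567) in TAC DKO and 556 to 719 (median 659) in TAC CTL, against 346, 306, 354 and 317 in sham DKO and 343, 381, 445 and 375 in sham CTL hearts, without overlap. The rise was 1.8-fold in DKO (log2 0.85, SE 0.11, adjusted p = 1.83e-06) and 1.67-fold in CTL hearts (log2 0.74, SE 0.11, adjusted p = 1.68e-05). With median centring it was 0.37 in DKO (adjusted p = 0.00991) and 0.26 in CTL hearts (adjusted p = 0.0781). The dimmer Hspa2 probe ILMN_3140383 also passed as higher, by 0.49 in DKO and 0.39 in CTL hearts.

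Hspa1l, a testis-enriched relative of the inducible HSP70, was called higher in CTL hearts, where it read 286 to 561 (median 345) after TAC against 221, 273, 256 and 185 after sham operation (log2 0.65, SE 0.18, adjusted p = 0.00936; 0.18 and adjusted p = 0.507 with median centring). In DKO hearts it read 296 to 629 (median 340) after TAC against 327, 299, 273 and 375, and did not pass (log2 0.24, adjusted p = 0.346). Hspa1a, the stress-inducible HSP70, varied widely within groups on its brightest probe ILMN_2829594, at 140 ± 83.4 in TAC DKO, 183 ± 112 in TAC CTL, 277 ± 234 in sham DKO and 174 ± 87.3 in sham CTL hearts. Neither change passed (log2 -0.75, adjusted p = 0.253 in DKO; log2 0.03, adjusted p = 0.98 in CTL). Hspa9 (mortalin), which pulls proteins into the mitochondrial matrix, was the brightest HSP70 probe. It averaged 10618 ± 751 in TAC DKO and 11247 ± 524 in TAC CTL, against 10321 ± 520 in sham DKO and 10377 ± 1896 in sham CTL hearts, and did not pass (log2 0.04, SE 0.09 in DKO; log2 0.14, SE 0.09 in CTL). The changes that passed on other HSP70 probes were small, between -0.37 for Hspa12b in CTL and 0.17 for Hspa14 in CTL hearts.

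**Figure D2:**
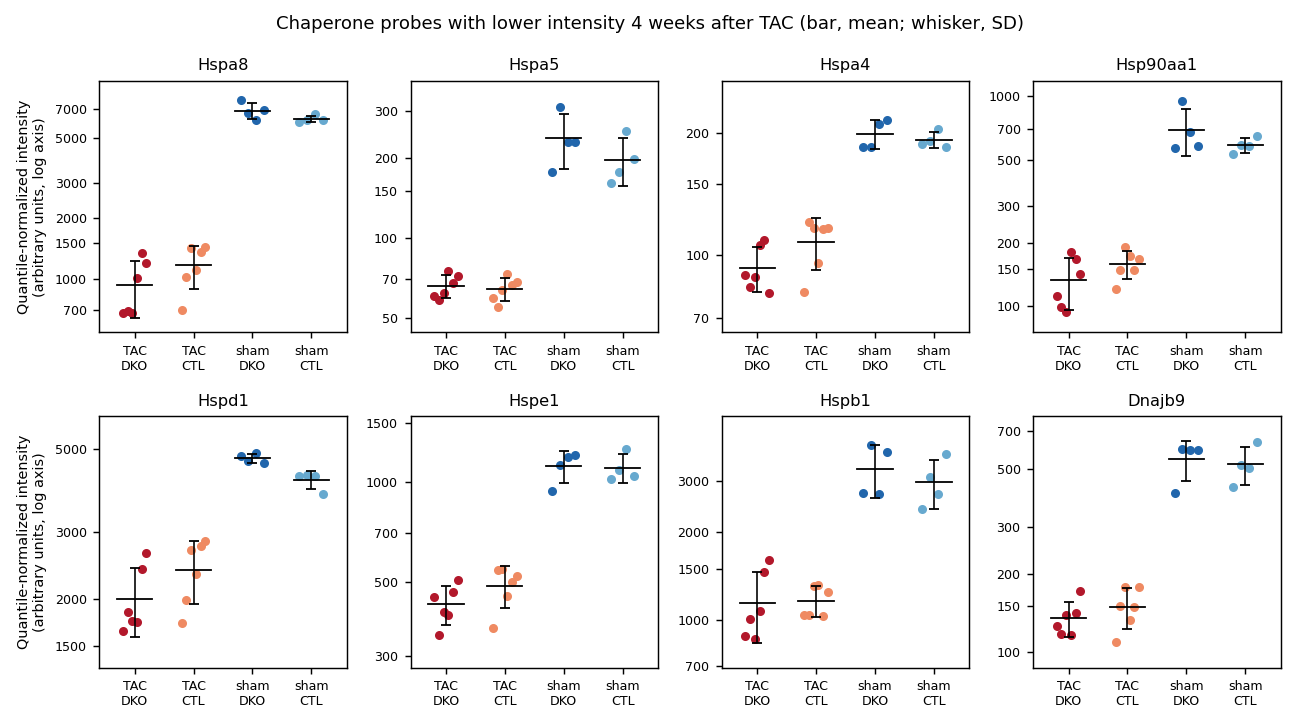
Quantile-normalized intensity (log axis) of 8 member probes in each heart, by group in the order TAC DKO, TAC CTL, sham DKO, sham CTL. Points are samples, bars are means and whiskers SD. In each panel the samples of both TAC groups lie below those of both sham groups, with the widest gap for Hspa8.

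HSP110 proteins, the nucleotide exchange factors of HSP70, were lower on 1 probe of each of the 3 genes in DKO hearts, while 2 of the 3 were called in CTL hearts. Hspa4 read 80.8 to 109 (median 88.9) in TAC DKO and 81.4 to 121 (median 117) in TAC CTL, against 185, 185, 211 and 215 in sham DKO and 188, 191, 205 and 185 in sham CTL hearts. It fell, with log2 changes of -1.11 in DKO (SE 0.10, adjusted p = 2.64e-08) and -0.85 in CTL hearts (SE 0.10, adjusted p = 1.71e-06). Hspa4l, at 53.0 ± 5.23 in TAC DKO and 58.7 ± 7.15 in TAC CTL against 92.8 ± 6.74 in sham DKO and 93.5 ± 13.6 in sham CTL hearts, also fell (log2 -0.81, adjusted p = 9.94e-07 in DKO; log2 -0.67, adjusted p = 1.82e-05 in CTL), to levels around the median probe, so that the sizes are lower limits. Hsph1, the stress-inducible member, read 939 to 1517 (median 1055) in TAC DKO against 1576, 2787, 1624 and 1823 in sham DKO hearts, without overlap, and fell by 0.79 (SE 0.18, adjusted p = 0.0019). In CTL hearts it read 877 to 1805 (median 1016) against 1403, 1792, 1355 and 1887, with overlap, and did not pass (log2 -0.49, SE 0.18, adjusted p = 0.0566). The difference between these 2 changes was -0.30 (interaction, unadjusted p = 0.257).

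HSP90 was called lower on 3 of its 4 probes in both genotypes, with a median change of -1.12 in DKO and -0.78 in CTL hearts. Hsp90aa1 encodes the inducible cytosolic HSP90. Probe ILMN_2668319 read 93.4 to 180 (median 127) in TAC DKO and 120 to 191 (median 159) in TAC CTL, against 567, 948, 676 and 583 in sham DKO and 530, 586, 582 and 651 in sham CTL hearts. TAC and sham groups were far apart. TAC DKO replicates 1 to 3 were again the lowest of their group, and TAC CTL replicate 1, at 120, the lowest of its own. The fall was 5.29-fold in DKO (log2 -2.40, SE 0.17, adjusted p = 5.28e-10) and 3.74-fold in CTL hearts (log2 -1.90, SE 0.17, adjusted p = 2.38e-08). A second, dimmer probe (ILMN_2752883) averaged 60.5 ± 6.57 in TAC DKO and 62.3 ± 6.49 in TAC CTL, against 122 ± 17.2 in sham DKO and 98.1 ± 18 in sham CTL hearts, and fell, with log2 changes of -1.01 in DKO and -0.65 in CTL. Its remaining probe (ILMN_2662557) read near background.

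Hsp90b1 encodes GRP94, the HSP90 of the ER, and is the gene with 2 ER stress elements printed above. It read 1921 to 2585 (median 2100) in TAC DKO and 1706 to 2524 (median 2355) in TAC CTL, against 4171, 6207, 5059 and 5121 in sham DKO and 4185, 3883, 4693 and 4294 in sham CTL hearts. It fell, with log2 changes of -1.23 in DKO (SE 0.11, adjusted p = 1.74e-08) and -0.91 in CTL hearts (SE 0.11, adjusted p = 1.7e-06). No TAC heart reached the lowest sham heart.

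The mitochondrial chaperonin, a barrel of Hspd1 (HSP60) with the lid Hspe1 (HSP10), was lower on 2 of 3 probes in both genotypes. Hspe1 read 346 to 507 (median 429) in TAC DKO and 364 to 546 (median 511) in TAC CTL, against 936, 1124, 1183 and 1207 in sham DKO and 1017, 1087, 1256 and 1037 in sham CTL hearts. It fell, with log2 changes of -1.38 in DKO (SE 0.11, adjusted p = 3.7e-09) and -1.18 in CTL hearts (SE 0.11, adjusted p = 5.64e-08). Hspd1 probe ILMN_2713841 read 1640 to 2640 (median 1796) in TAC DKO and 1723 to 2849 (median 2515) in TAC CTL, against 4772, 4636, 4875 and 4574 in sham DKO and 4242, 4256, 4235 and 3786 in sham CTL hearts. Barrel and lid thus both lay lower in every TAC heart than in any sham heart, Hspd1 by 1.26 in DKO (SE 0.13, adjusted p = 1.53e-07) and 0.81 in CTL hearts (SE 0.13, adjusted p = 7.27e-05). The second Hspd1 probe, ILMN_2639036, did not pass in either genotype (log2 -0.31, adjusted p = 0.323 in DKO; log2 0.15, adjusted p = 0.692 in CTL), with a spread of 685 ± 290 in sham CTL hearts.

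Small heat shock proteins did not move together. Of 10 probes, 1 was called lower in each genotype, and 4 passed as higher and 2 as lower in DKO hearts, against 3 higher and 1 lower in CTL hearts. Hspb1 (HSP27), which binds actin and holds unfolded proteins, read 861 to 1602 (median 1041) in TAC DKO and 1036 to 1325 (median 1146) in TAC CTL, against 2715, 3976, 2691 and 3761 in sham DKO and 2394, 3097, 2691 and 3689 in sham CTL hearts. It fell, with log2 changes of -1.53 in DKO (SE 0.16, adjusted p = 1.65e-07) and -1.34 in CTL hearts (SE 0.16, adjusted p = 1.74e-06), while its near-background probe ILMN_2515964 did not follow (log2 0.16, adjusted p = 0.0345 in DKO; log2 0.09, adjusted p = 0.27 in CTL).

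The muscle proteins Hspb2 and Hspb6 lay higher after TAC on the quantile scale. Hspb2, which binds the myotonic dystrophy kinase, averaged 446 ± 50.3 in TAC DKO and 423 ± 39.9 in TAC CTL, against 313 ± 41.6 in sham DKO and 305 ± 38.3 in sham CTL hearts (log2 0.51, adjusted p = 0.000312 in DKO; log2 0.48, adjusted p = 0.000881 in CTL, but 0.00 with median centring in CTL). Hspb6 (HSP20) was the brightest member, at 29564 ± 3551 in TAC DKO and 31010 ± 982 in TAC CTL, against 22557 ± 340 in sham DKO and 24311 ± 3178 in sham CTL hearts. It passed in both genotypes (log2 0.38 in DKO and 0.36 in CTL), with several TAC samples at the highest intensity of the scale, 31764. Over the 29 alternative settings, the change in DKO hearts went down to 0.03 for Hspb2 and 0.08 for Hspb6 (adjusted p up to 0.833 and 0.51). In CTL hearts that of Hspb6 went down to 0.10 (adjusted p up to 0.436). Hspb3 fell by 0.29 in DKO hearts (adjusted p = 0.0188). Among the 3 Hspb-named genes outside the family, Hspbp1, an exchange factor of HSP70, passed as higher by 0.24 in DKO and 0.28 in CTL hearts (-0.02 in DKO with median centring). Probes of Hspb11, a protein of cilia, and Hspbap1 that passed as higher in CTL hearts read near background, and the other probe of Hspbap1 fell by 0.26 in DKO hearts.

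**Figure D3:**
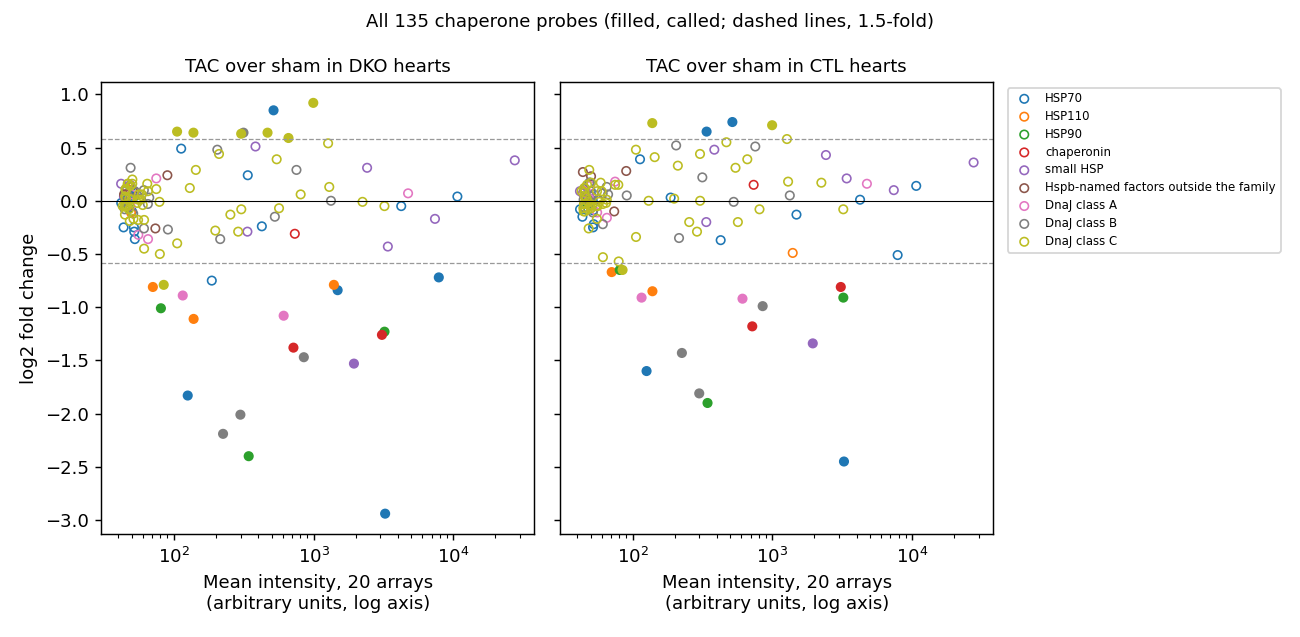
Mean intensity over the 20 samples (log axis) against the log2 fold change after TAC for all 135 member probes, DKO on the left and CTL on the right. Filled points were called, and dashed lines mark 1.5-fold. No called probe lies at or below the median level of 53, and the called probes on the lower side outnumber those on the upper side, 19 to 8 in DKO and 16 to 4 in CTL hearts.

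Class A DnaJ proteins resemble the bacterial founder of the family and serve HSP70 in the cytosol (Dnaja1, Dnaja2) and in mitochondria (Dnaja3). Dnaja2 was called lower on 2 of its 3 probes. ILMN_2720580 read 338 to 505 (median 374) in TAC DKO and 392 to 561 (median 485) in TAC CTL, against 737, 829, 832 and 950 in sham DKO and 884, 946, 782 and 991 in sham CTL hearts, without overlap. It fell, with log2 changes of -1.08 in DKO (SE 0.11, adjusted p = 1.52e-07) and -0.92 in CTL hearts (SE 0.11, adjusted p = 2.29e-06). ILMN_3003324 averaged 85.6 ± 15.3 in TAC DKO and 87.6 ± 16.2 in TAC CTL, against 157 ± 12.9 in sham DKO and 163 ± 11.3 in sham CTL hearts, and was the only probe of the 16 called lower in both genotypes with the larger fall in CTL (log2 -0.89 in DKO and -0.91 in CTL). A probe of Dnaja1 and 1 of the 3 Dnaja3 probes passed as lower in DKO hearts, with changes of -0.32 and -0.36. The brightest class A probe, of Dnaja3, averaged 4663 ± 385 in TAC DKO and 5129 ± 293 in TAC CTL, against 4447 ± 219 in sham DKO and 4600 ± 363 in sham CTL hearts, and did not pass (adjusted p = 0.528 in DKO and 0.11 in CTL).

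Class B DnaJ proteins, which include the stress-inducible partner of HSP70, Dnajb1, had 3 probes of 2 genes called lower in each genotype. Dnajb9 (ERdj4), an ER member that hands misfolded proteins to degradation, read on ILMN_2510875 116 to 171 (median 133) in TAC DKO and 109 to 178 (median 149) in TAC CTL, against 405, 599, 592 and 594 in sham DKO and 429, 520, 507 and 638 in sham CTL hearts. It fell, with log2 changes of -2.01 in DKO (SE 0.14, adjusted p = 4.53e-10) and -1.81 in CTL hearts (SE 0.14, adjusted p = 3.56e-09). Its brighter probe ILMN_2829636 fell as well (log2 -1.47 in DKO and -0.99 in CTL), at 519 ± 96 in TAC DKO and 594 ± 143 in TAC CTL against 1432 ± 252 in sham DKO and 1158 ± 121 in sham CTL hearts. Both probes of this gene thus lay lower in every TAC heart.

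Dnajb4, a cytosolic partner of HSP70, read 58.9 to 132 (median 88.7) in TAC DKO and 84.3 to 189 (median 134) in TAC CTL, against 408, 501, 359 and 370 in sham DKO and 333, 441, 344 and 343 in sham CTL hearts. TAC DKO replicates 1 to 3, at 58.9 to 70.5, lay below replicates 4 to 6, at 107 to 132, and TAC CTL replicate 1, at 84.3, was the lowest of its group. The change was -2.19 in DKO (SE 0.22, adjusted p = 8.31e-08) and -1.43 in CTL hearts (SE 0.22, adjusted p = 3.55e-05), and its 2 other probes showed no call. Dnajb1 passed as higher in CTL hearts only, where it averaged 903 ± 266 after TAC against 624 ± 130 (log2 0.51, adjusted p = 0.0385). TAC CTL replicate 2 read 1430 and the next sample 889, and the change no longer passed in 11 of 29 alternative settings, that without this replicate among them (log2 0.03 to 0.65, adjusted p up to 0.937, over the 29). In DKO hearts it averaged 768 ± 113 against 640 ± 191 (log2 0.29, adjusted p = 0.234), and the 2 changes differed by -0.22 (interaction, unadjusted p = 0.384). Dnajb12, anchored in the ER membrane, passed as higher in both genotypes, by 0.48 in DKO and 0.52 in CTL hearts. Over the 29 alternative settings, its change went down to 0.04 in DKO and 0.09 in CTL hearts (adjusted p up to 0.714 and 0.4). The brightest class B probe, of Dnajb2, averaged 1285 in TAC DKO and 1398 in TAC CTL, against 1285 in sham DKO and 1352 in sham CTL hearts, and did not pass.

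Class C, the largest and most varied group, was the only family with more probes called higher than lower: 6 higher and 1 lower in DKO, and 2 higher and 1 lower in CTL hearts, of 55 probes. No class C member stayed called as higher with median centring. Dnajc10 (ERdj5), a disulfide reductase of the ER, read 1060 to 1603 (median 1331) in TAC DKO and 981 to 1264 (median 1110) in TAC CTL, against 678, 675, 676 and 703 in sham DKO and 625, 613, 748 and 723 in sham CTL hearts, without overlap. It rose by 0.92 in DKO (SE 0.09, adjusted p = 8.81e-08; 0.43 and adjusted p = 0.000889 with median centring) and 0.71 in CTL hearts (SE 0.09, adjusted p = 4.13e-06; 0.23 and adjusted p = 0.0773 with median centring). Of the 4 probes of Dnajc10, this was the only one called.

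Dnajc11, a mitochondrial membrane protein, read 131 to 199 (median 149) in TAC DKO and 131 to 187 (median 175) in TAC CTL, against 83.6, 112, 93.0 and 115 in sham DKO and 99.7, 105, 107 and 93.3 in sham CTL hearts, again without overlap. It rose by 0.64 in DKO (adjusted p = 8.89e-05; 0.30 and adjusted p = 0.0438 with median centring) and 0.73 in CTL hearts (adjusted p = 2.75e-05; 0.38 and adjusted p = 0.0125). Dnajc18 averaged 125 in TAC DKO and 117 in TAC CTL, against 80.4 in sham DKO and 84 in sham CTL hearts. It was called in DKO (log2 0.65, adjusted p = 3.28e-06; 0.38 with median centring) and passed in CTL hearts (log2 0.48, adjusted p = 0.000164). Dnajc5, a J protein of secretory vesicles, passed on both probes in both genotypes, from 0.39 to 0.59, but on neither with median centring, where ILMN_2671708 stood at -0.10 in CTL hearts.

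Dnajc8, which binds splicing factors, was the class C gene called lower, at 62.4 ± 8.25 in TAC DKO and 72.6 ± 7.71 in TAC CTL, against 107 ± 3.81 in sham DKO and 114 ± 9.09 in sham CTL hearts. ILMN_2948465 fell, with log2 changes of -0.79 in DKO (adjusted p = 4.27e-07) and -0.65 in CTL hearts (adjusted p = 7.77e-06), and ILMN_2775146 changed by -0.29 in both genotypes. Dnajc25 fell, with log2 changes of -0.50 in DKO and -0.57 in CTL hearts, below 1.5-fold. Dnajc3 (p58IPK), the other gene with an ER stress element in its promoter, did not pass, at 304 in TAC DKO and 294 in TAC CTL, against 325 in sham DKO and 299 in sham CTL hearts on its brighter probe (log2 -0.08 in DKO and 0.00 in CTL). The 3 genes with this element thus had different values after TAC, with calls for Hspa5 and Hsp90b1 and none for Dnajc3. Dnajc19, a mitochondrial import protein whose loss causes cardiomyopathy in humans, was the brightest class C probe and did not pass, at 3165 in TAC DKO and 3147 in TAC CTL, against 3273 in sham DKO and 3340 in sham CTL hearts (adjusted p = 0.645 in DKO and 0.457 in CTL).

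Probes of 1 gene are not always annotated to the same transcript. For 5 genes they passed in opposite directions, Dnajc2 and Dnajc16 in both genotypes and Dnajb6, Dnajc8 and Hspb1 in DKO hearts. Dnajb6, a suppressor of protein aggregation, was called higher in DKO hearts on ILMN_3107377, at 316 to 420 (median 382) in TAC DKO against 240, 252, 237 and 223 in sham DKO hearts (log2 0.64, adjusted p = 2.79e-05; 0.16 and adjusted p = 0.231 with median centring). In CTL hearts this probe averaged 329 ± 15 after TAC against 288 ± 67.1, where sham CTL replicate 4 read 388 and the other 3 read 242 to 266 (log2 0.22, adjusted p = 0.127). ILMN_1221204 of the same gene passed as lower, with changes of -0.36 in DKO and -0.35 in CTL hearts, and ILMN_2426446 by -0.26 in DKO hearts. These 3 probes of Dnajb6 are annotated to different transcript records, and which transcripts they detect was not examined here.

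Dnajc2, a ribosome-associated J protein, averaged 565 in TAC DKO and 516 in TAC CTL, against 364 in sham DKO and 355 in sham CTL hearts on ILMN_1249242, called higher in DKO (log2 0.64, adjusted p = 8.7e-06; 0.15 and adjusted p = 0.2 with median centring). Its probe ILMN_1233931 passed as lower, with changes of -0.40 in DKO and -0.34 in CTL hearts. Dnajc16, a J protein of the ER membrane, passed as higher on 2 probes, ILMN_2595637 (log2 0.63, called, in DKO; 0.44 in CTL, but -0.03 with median centring) and ILMN_2444662 (log2 0.39 in DKO and 0.31 in CTL, but -0.08 and -0.17 with median centring). The remaining probe, ILMN_1247873, passed as lower, with changes of -0.45 in DKO and -0.53 in CTL hearts. For Dnajc8 and Hspb1, the probes that passed as higher in DKO hearts, ILMN_2428704 and ILMN_2515964, read near background (log2 0.16 each).

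**Figure D4:**
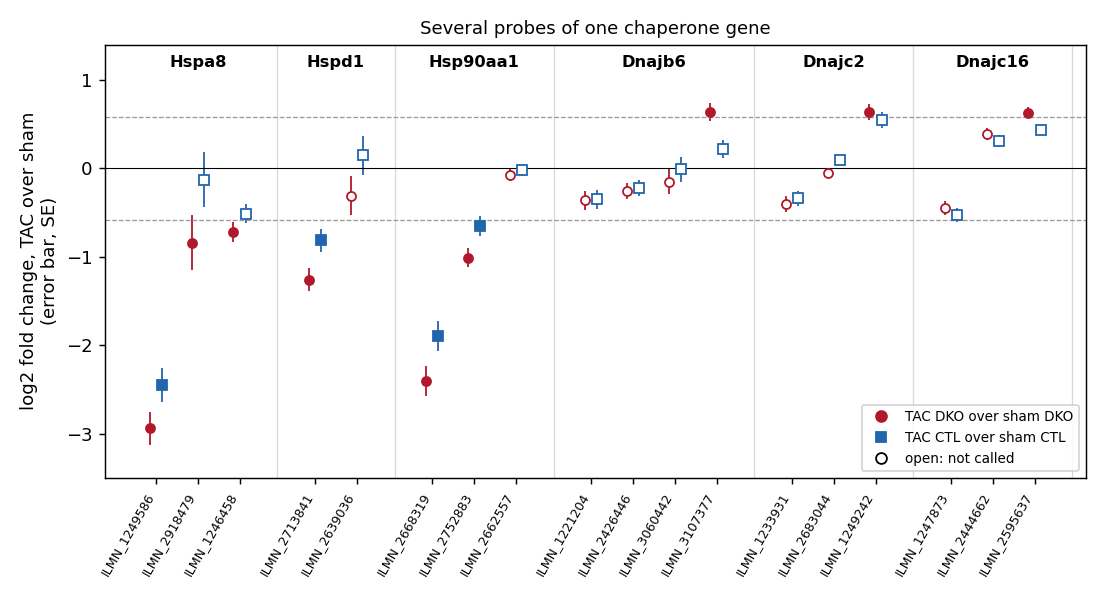
Log2 fold change after TAC with SE for each probe of 6 genes with several probes, DKO as red circles and CTL as blue squares. The 3 probes of Hspa8 lie between -0.72 and -2.94 in DKO hearts, and Dnajb6, Dnajc2 and Dnajc16 have probes on both sides of 0.

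Genes that work with these chaperones but lie outside the name rule were examined in 5 lists. Beside the list counts, 4.27% of all probes were called lower and 2.46% higher in DKO, and 3.40% and 1.76% in CTL hearts. Among all probes above the median level, 8.54% were called lower in DKO and 6.81% in CTL hearts. Whether a list differed from these shares was not tested. Of 43 probes of co-chaperones of HSP70 and HSP90 (29 genes), 10 were called lower and 0 higher in each genotype, with a median change of -0.16 in both. St13 (Hip), which stabilizes client-bound HSP70, averaged 83.1 in TAC DKO against 280 in sham DKO hearts (log2 -1.78, adjusted p = 4.65e-10) and 110 in TAC CTL against 284 in sham CTL hearts (log2 -1.38, adjusted p = 2.93e-08). Unc45b, the muscle chaperone of myosin, averaged 1453 in TAC DKO against 4085 in sham DKO hearts (adjusted p = 7.66e-10) and 1699 in TAC CTL against 3856 in sham CTL hearts (adjusted p = 2.9e-08) on ILMN_3153940. Ptges3 (p23), a partner of HSP90, fell, with log2 changes of -1.29 in DKO and -1.01 in CTL hearts. Cdc37l1, another HSP90 partner, fell on 2 of its 4 probes (log2 -1.20 and -1.11 in DKO, -0.87 and -0.96 in CTL).

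Of 22 probes of the cytosolic chaperonin and prefoldin (14 of 15 genes measured), 6 were called lower and 1 higher in DKO and 5 lower and 1 higher in CTL hearts. Vbp1, a prefoldin subunit, averaged 133 in TAC DKO against 422 in sham DKO hearts (log2 -1.66) and 145 in TAC CTL against 399 in sham CTL hearts (log2 -1.48), whereas Cct6a, a chaperonin subunit, passed as higher on ILMN_2774941 (log2 0.38 in DKO, 0.69 in CTL). Of 38 probes for ER folding and stress (22 genes), 8 were called lower and 1 higher in DKO and 5 lower and 1 higher in CTL hearts. Sel1l, an adaptor of ER-associated degradation, fell, with log2 changes of -1.67 in DKO and -1.38 in CTL hearts on ILMN_3137920, and Ddit3 (CHOP), a transcription factor of ER stress, rose by 0.71 in DKO and 0.81 in CTL hearts on 1 of 2 probes. Of 27 probes for mitochondrial protein quality control (12 genes), 6 were called lower and 0 higher in each genotype. They were led by Pmpcb, a subunit of the mitochondrial processing peptidase, at 247 in TAC DKO against 1046 in sham DKO hearts (log2 -2.12) and 323 in TAC CTL against 1175 in sham CTL hearts (log2 -1.89). Of 10 probes for heat shock factors and further small heat shock proteins (7 of 8 genes measured), 2 were called lower in DKO and 0 in CTL hearts. Cryab, the alpha B-crystallin of muscle, averaged 3183 in TAC DKO against 5613 in sham DKO hearts (log2 -0.86, adjusted p = 0.000361) and 4005 in TAC CTL against 4935 in sham CTL hearts (log2 -0.33, adjusted p = 0.178). No probe of these lists was called between genotypes or for the interaction.

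The second question was whether loss of the methyltransferases changed chaperone RNA in hearts under pressure overload. No member was called between TAC DKO and TAC CTL hearts, where 0.144% of all probes were called. Hspb8 and Dnajb5, 1 probe each, passed as lower below 1.5-fold, against 0.0618% of all probes, and 23 members had an unadjusted p under 0.05 (8.99% of all probes). The changes of the 135 members ranged from -0.59 to 0.22, with a median of -0.04. Samples of the 2 genotypes did not overlap, with lower values in DKO hearts, for 3 members (2.22%, against 0.216% of all probes), which were Dnajb5, Dnajb8 and Dnajc30. With higher values in DKO hearts this held for 0 members, against 0.338% of all probes. The Dnajb8 probe, ILMN_1255087, read near background. Dnajc30 on ILMN_2465068 read 1181 to 1378 in TAC DKO and 1402 to 1438 in TAC CTL hearts and did not pass. In sham hearts it read 1125 to 1203 in DKO and 1212 to 1324 in CTL, also without overlap (log2 -0.10, adjusted p = 0.935).

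Hspb8 (HSP22) works with Bag3 in the removal of damaged filament proteins in muscle. Its brighter probe ILMN_2761205 read 5073, 5528, 5121, 5960, 6915 and 7213 in TAC DKO hearts, against 7756, 6574, 11200, 8606, 9965 and 8710 in TAC CTL hearts. TAC DKO replicates 5 and 6 lay above the lowest TAC CTL heart, and the other 4 below it. The change was -0.55 (SE 0.11, adjusted p = 0.0274, exact permutation p = 0.00649, two-sided), which is 1.47-fold. The second probe, ILMN_2944366, read 1848 to 2591 (median 2261) in TAC DKO and 2556 to 3719 (median 3111) in TAC CTL hearts, where the highest TAC DKO value crossed only the lowest TAC CTL value, and its change of -0.44 (SE 0.10) did not pass (adjusted p = 0.0615, exact permutation p = 0.00433). In sham hearts the 2 probes had changes in the same direction that did not pass, of -0.28 (adjusted p = 0.903) and -0.32 (adjusted p = 0.804), with 5488, 6505, 7471 and 7421 in sham DKO against 7257, 7722, 8680 and 8747 in sham CTL hearts on the brighter probe. The difference between the effects of genotype in TAC and sham hearts did not pass either (interaction -0.28, unadjusted p = 0.136).

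Dnajb5, a class B partner of HSP70 known in cardiomyocytes for binding histone deacetylase Hdac4, read 59.0, 71.0, 64.7, 88.4, 81.2 and 89.9 in TAC DKO hearts, against 90.8, 101, 98.8, 97.8, 109 and 109 in TAC CTL hearts, without overlap. The change was -0.43 (SE 0.09, adjusted p = 0.0337), and the exact permutation p of 0.00216 is the smallest that 6 against 6 samples can give. Members given this test were chosen for small p-values on the same arrays, and its p is not corrected for that choice. In sham hearts Dnajb5 read 101, 92.7, 84.1 and 85.1 in DKO against 86.4, 110, 98.5 and 95.1 in CTL, with overlap (log2 -0.10, adjusted p = 0.979). The interaction was -0.33 (SE 0.14, unadjusted p = 0.0321, adjusted p = 0.939). Its 2 other probes did not pass.

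Both results depended on which samples were used and on the processing. Hspb8 ILMN_2761205 no longer passed without any 1 of TAC CTL replicates 3 to 6 or TAC DKO replicates 1 to 3 (adjusted p 0.0544 to 0.0968), 7 of the 20 possible omissions. Dnajb5 no longer passed without any 1 of TAC CTL replicates 2 to 6 or TAC DKO replicates 1 to 3 (adjusted p 0.0575 to 0.117), 8 of the 20. Dnajb5 also missed the threshold with the deposited values or median centring (adjusted p = 0.068 each) and with log2(intensity + 50) (0.0514), and with only the groups compared both missed it (0.0909 for Dnajb5 and 0.0781 for Hspb8 ILMN_2761205), as did Hspb8 with log2(intensity + 50) (0.051). Conversely, Hspb8 ILMN_2761205 was past 1.5-fold and called with array weights (log2 -0.61) and without any 1 of TAC CTL replicates 1 and 2 and TAC DKO replicates 5 and 6 (log2 -0.59 to -0.63). Without TAC DKO replicates 2 and 3, the hearts with the highest atrial marker sums, an omission chosen after the values were seen, the changes were -0.48 for Hspb8 ILMN_2761205 (adjusted p = 0.283), -0.47 for ILMN_2944366 (adjusted p = 0.139) and -0.37 for Dnajb5 (adjusted p = 0.335). Hspb7, a small heat shock protein of heart muscle, read 1959, 2157, 2527, 3378, 3695 and 3699 in TAC DKO against 2909, 3091, 5059, 3852, 3750 and 3755 in TAC CTL hearts. TAC DKO replicates 1 to 3 were its lowest values, and it did not pass (log2 -0.39, SE 0.16, unadjusted p = 0.0202, adjusted p = 0.452). Dnajb4 had the largest change of any member between the TAC groups, -0.59, and did not pass (unadjusted p = 0.00615, adjusted p = 0.331).

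**Figure D5:**
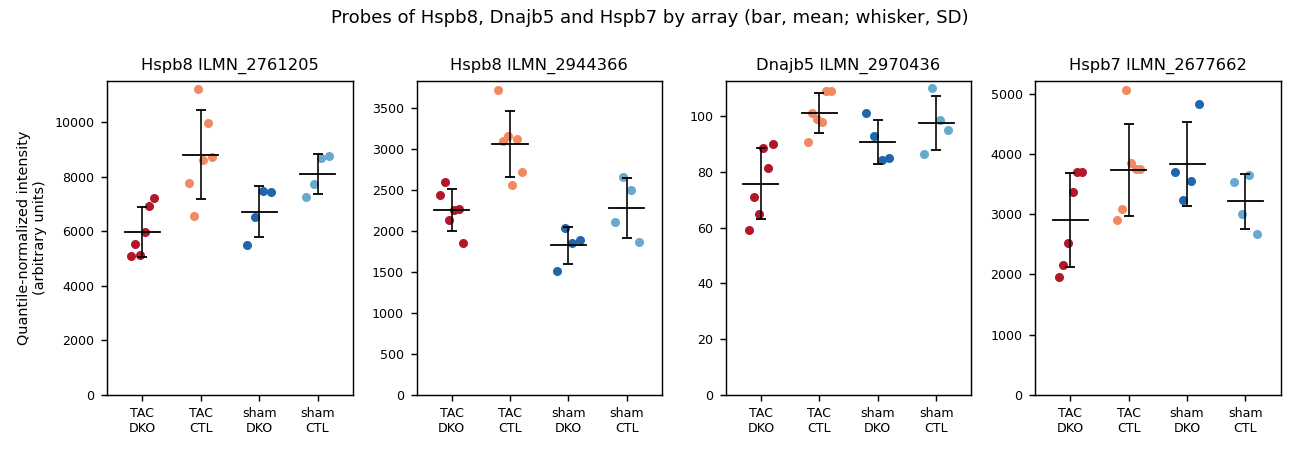
Quantile-normalized intensity (linear axis from 0) of both Hspb8 probes, Dnajb5 and Hspb7 in each heart, by group in the order TAC DKO, TAC CTL, sham DKO, sham CTL. Points are samples, bars are means and whiskers SD. Only for Dnajb5 do TAC DKO samples, at 59.0 to 89.9, all lie below TAC CTL samples, at 90.8 to 109.

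In sham hearts no member was called or passed between DKO and CTL, where 0.102% of all probes were called. An unadjusted p under 0.05 was reached by 13 members, against 5.55% of all probes, and changes ranged from -0.32 to 0.71 with a median of 0.01. Dnajc24, which takes part in making diphthamide on a translation factor, had the smallest unadjusted p, at 229, 205, 228 and 269 in sham DKO against 185, 202, 177 and 181 in sham CTL hearts (log2 0.32, SE 0.09, adjusted p = 0.487, exact permutation p = 0.0286, the smallest that 4 against 4 samples can give). Its values did not overlap in sham hearts, but lay at 191 ± 19.1 in TAC DKO and 190 ± 16.7 in TAC CTL hearts. In sham hearts 4 members with higher and 3 with lower values in DKO were without overlap (2.96% and 2.22%), against 1.81% and 2.08% of all probes. Any member without overlap reaches this smallest permutation p. Hsp90aa1 on ILMN_2752883 had the next smallest unadjusted p, at 111, 146, 124 and 107 in sham DKO against 93.5, 124, 90.8 and 83.6 in sham CTL hearts (log2 0.32, adjusted p = 0.787, exact permutation p = 0.114).

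The last comparison was whether the change after TAC differed between genotypes. No member was called for the interaction, where 0.00221% of all probes were called, and 12 had an unadjusted p under 0.05, against 4.71% of all probes. Of the 16 probes called lower in both genotypes, 15 had the more negative change in DKO hearts. As these 16 share the same arrays, and none passed by itself (adjusted p of every member at least 0.939), this count has no test. The smallest unadjusted p in limma was that of Dnajb6 ILMN_3107377 (interaction 0.42, SE 0.14, unadjusted p = 0.00625), the probe with 1 high sham CTL sample, followed by Hspb7 (-0.64, SE 0.25, unadjusted p = 0.0164) and Dnajc24 (-0.31, SE 0.12, unadjusted p = 0.0185). Among the members that fell most, the interaction was -0.76 for Dnajb4 (SE 0.31), -0.50 for Hsp90aa1 on ILMN_2668319 (SE 0.24), -0.49 for Hspa8 on ILMN_1249586 (unadjusted p = 0.0841) and -0.23 for Hspa5 (unadjusted p = 0.219). By family, the 12 members with an unadjusted limma p under 0.05 included 2 of the 4 HSP90 probes, 4 of the 22 DnaJ class B probes and 0 of the 23 HSP70 probes. Differences of this size between the genotypes were not resolved with 4 to 6 samples in a group.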

How the data were processed

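RNA of 20 left ventricles was measured on Illumina bead chips. Intensity values were used as deposited: per the labels, the authors processed the scanner signal in GenomeStudio 2010.3. That the sham and TAC arrays were normalized apart was inferred from the sorted values of the arrays. The values are linear, at 28.69 to 30712 in the sham and 36.03 to 32486 in the TAC set (medians 47.5 and 58.6, a shift of 0.30 log2), and arrays correlated at 0.9491 to 0.9939. Depth has no meaning for arrays, and the number of arrays limits the precision. The intensities were log2 transformed, quantile normalized over the 20 arrays and fitted with limma 3.58.1 in R 4.3.3 (data.table version 1.17.8), 1 mean per group, 16 residual and 6.64 prior degrees of freedom, with Benjamini-Hochberg adjustment over 45281 probes and the thresholds of the study's methods (adjusted p under 0.05, fold over 1.5). The fit was tested on simulated data.

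Probe names came from the platform annotation: 34885 probes had 1 gene, 18 several and 10378 none, 34807 symbols were updated through RefSeq, and 0 members changed by it. Members, lists and tests were chosen with earlier results of these data known. Values are given for members called in any comparison, for up to 12 of the largest rises and falls that passed per comparison, the brightest probe of each family, the 3 smallest p-values per genotype comparison and interaction, genes whose probes passed in opposite directions, and up to 4 genes of each further list, and other names were chosen after their values were seen. Exact permutation tests are two-sided over samples. They were run only on the members with the smallest p-values per genotype comparison and are not corrected for that choice. Alternatives were the deposited values as they are, median centring, log2(intensity + 50), bright probes only, an intensity trend, array weights, only the groups compared, the replicate number as a block, any fold, and each array left out. The authors' gene lists were not used.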

Additional observations from a re-analysis of the deposited data

Results flagged for a closer look

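Among 208 pairs of a named member probe and a group, 20 pairs on 18 probes held a sample far from the others of its group, by the gap to the nearest sample as a share of the range, where chance alone gives about 1 in 20 groups. In TAC DKO hearts, replicate 4 was the highest for Hspa1l (629, the next 388) and for both Hspa2 probes (818, the next 617, and 166, the next 118). Replicate 1 of that group was the highest for Hsph1 (1517, the next 1155) and the lowest for Hspb6 (22438, the next 30341). In TAC CTL hearts, replicate 2 was the highest for Hspa1l (561, the next 380), Dnajb1 (1430, the next 889) and Dnajc16 on ILMN_2444662 (704, the next 586).

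In sham DKO hearts, replicate 1 was the lowest for Dnajb9 on ILMN_2510875 (405, the next 592) and the highest for Dnajb1 (924, the next 568), replicate 2 was the highest for Dnajc5 on ILMN_2671708 (591, the next 512) and the lowest for Dnajc2 on ILMN_1233931 (115, the next 126), and replicate 4 was the highest for Dnajc10 (703, the next 678). In sham CTL hearts, replicate 4 was the lowest for Hspd1 on ILMN_2713841 (3786, the next 4235), Hspa8 on ILMN_2918479 (370, the next 1897), Hspa9 (7567, the next 10898) and Dnaja3 (4062, the next 4732), and the highest for Dnajb6 on ILMN_3107377 (388, the next 266). Replicate 2 of that group was the highest for Dnajb4 (441, the next 344) and for Hspa8 on ILMN_1246458 (11053, the next 9221). Without sham CTL replicate 4, the change of Hspa8 on ILMN_2918479 in DKO hearts had an adjusted p of 2.23e-05.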

How the results depend on the processing

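At any fold, 36 members passed as lower and 21 as higher after TAC in DKO hearts, 24 as higher in CTL hearts and 2 as lower between TAC DKO and TAC CTL hearts. With median centring, 31 were called lower and 0 higher in DKO, and 27 lower and 0 higher in CTL hearts. With the deposited values, where all probes shifted by 0.29 in DKO and 0.28 in CTL hearts, 5 were called higher in DKO, and with log2(intensity + 50) 2 in each genotype. Median centring turned the sign of values that passed as higher: in DKO hearts Dnajc16 ILMN_2444662 stood at -0.08, Hspb8 ILMN_2944366 at -0.16 and Hspbp1 at -0.02, and in CTL hearts Dnajc16 at -0.17 (ILMN_2444662) and -0.03 (ILMN_2595637), Dnajc5 ILMN_2671708 at -0.10, Hspb2 at 0.00 and Hspb8 ILMN_2944366 at -0.04. The cause was not tested.

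With each array left out in turn, 18 to 19 members were called lower and 5 to 9 higher in DKO hearts (5 without sham DKO replicate 1), and 14 to 18 lower and 3 to 6 higher in CTL hearts. Between TAC DKO and TAC CTL hearts 0 to 1 was called lower, with 1 without TAC CTL replicate 1 or 2 or TAC DKO replicate 5 or 6, and 1 with array weights. Leaving out 1 array raised the adjusted p of Hspb8 ILMN_2761205 to 0.0544 to 0.0968 in 7 cases and that of Dnajb5 to 0.0575 to 0.117 in 8 cases. Dnajb5 also missed the threshold with the deposited values or median centring (0.068), with log2(intensity + 50) (0.0514) and with only the groups compared (0.0909), and Hspb8 ILMN_2761205 with log2(intensity + 50) (0.051) and only the groups compared (0.0781). The other Hspb8 probe, ILMN_2944366, passed with bright probes only (0.0461), an intensity trend (0.0435) and array weights (0.048). Replicate numbers are shared between groups, and the labels do not say whether they pair the samples. Same-numbered samples of the 2 genotypes deviated together by correlations of -0.31 to 0.57 in TAC and 0.02 to 0.38 in sham hearts. Between TAC and sham hearts of the same genotype these correlations were -0.10 to 0.17. Samples with different numbers were not compared, so pairing was not tested. With the replicate number as a block, 8 members were called higher and 18 lower in DKO, and 6 higher and 18 lower in CTL hearts. Between the TAC groups 1 was then called lower. It was neither Hspb8 nor Dnajb5, which stayed below 1.5-fold (log2 -0.55 and -0.44 for Hspb8, -0.43 for Dnajb5). Their adjusted p was smaller with this block (0.00259 and 0.0249 for Hspb8, 0.0151 for Dnajb5). Without TAC DKO replicates 2 and 3, chosen after seeing the data, 17 were called lower and 7 higher after TAC in DKO hearts. No alternative gave a call between genotypes in sham hearts or for the interaction. Probes near the background limit what can be seen for 49 of the 135 members.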
